A study of Mus musculus with 20 samples.

Results

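Genes that divide the liver lobule into metabolic zones were followed in livers of *IMP2-2* tg and wt mice. A list of 35 genes was followed, with 15 pericentral genes, 13 periportal genes and 7 genes of the urea cycle. The periportal group holds genes of amino acid metabolism and also others, among them *Pck1*, *Aldh1b1*, *Etnppl*, *Ctsc* and *Pigr*. Of the 35 genes, 32 had a probe set annotated to them alone, among 18194 genes measured in all. *Sds*, *Sdsl* and *Gls2* were not analysed here. The list groups genes by zone or pathway and was drawn up with earlier results of these arrays known. By the labels, livers of 10 transgenic and 10 wildtype animals of the background strain C57Bl6J/DBA2, all 5 weeks old and untreated, were excised, frozen and hybridised one by one on Mouse Genome arrays. The transgene is IMP2-2, a splice variant of the *IGF2* mRNA binding protein 2 also called p62, and is described as liver-specific. The promoter that drives it and the sex of the mice are not given in the labels. *Igf2bp2*, the mouse gene of the same protein, has no probe set of its own here, so the genotype labels were not checked against the transgene.

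In the liver, blood enters the lobule at the portal vein and leaves at the central vein, and hepatocytes differ along this path. Endothelial cells near the central vein release WNT ligands, and active β-catenin signalling there switches on glutamine synthetase and other pericentral genes. Periportal hepatocytes break down amino acids, make glucose and convert ammonia into urea, while pericentral hepatocytes capture ammonia that escaped the urea cycle and fix it in glutamine. The arrays measured RNA of whole livers, so they give the level of a zonal gene but not its place in the lobule. A smaller number of cells of a zone and less RNA in each such cell cannot be told apart.

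TCF/LEF factors, the DNA-binding partners of β-catenin, recognise short motifs that begin with CTTTG. The letters CTTTG followed by any pair of A or T were searched on both strands in the 250 bases upstream of each annotated start in RefSeq for GRCm38.p6. For 23 of the 35 genes a promoter was at hand, 26 promoters in all, and 5 genes held a match. These were 3 of 9 pericentral genes (*Sp5*, *Slc1a2* and *Lect2*), 1 of 10 periportal genes (*Hal*) and 1 of 4 urea cycle genes (*Nags*). A match was present in 19.2% of the promoters of the list and in 14.8% of all 32851 promoters. The upstream sequences of these 5 genes are shown because their values are described below, with each match in capitals. A match is a string of letters and not a shown binding site. The *Slc1a2* stretch precedes a start inside the gene, whose annotated span begins at base 102658239, and the sequence before that base was not searched. *Axin2*, *Nkd1* and *Tat*, counted without a match, were likewise searched only before a start inside the gene. For *Ctsc*, *Lect2*, *Otc* and *Uroc1* the start also lay inside the annotated span, by fewer bases.
Sp5, chr2:70474673-70474922, plus strand: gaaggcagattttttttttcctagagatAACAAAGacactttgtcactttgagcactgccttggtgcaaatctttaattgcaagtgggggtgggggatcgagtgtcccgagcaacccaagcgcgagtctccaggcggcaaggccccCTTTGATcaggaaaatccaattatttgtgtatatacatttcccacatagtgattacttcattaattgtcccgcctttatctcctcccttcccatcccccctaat
Slc1a2, chr2:102706188-102706437, plus strand: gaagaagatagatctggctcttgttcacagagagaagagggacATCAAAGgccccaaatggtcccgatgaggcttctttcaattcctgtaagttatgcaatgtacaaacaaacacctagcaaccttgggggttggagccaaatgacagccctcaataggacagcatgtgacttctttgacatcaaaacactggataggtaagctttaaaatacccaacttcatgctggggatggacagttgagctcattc
Lect2, chr13:56548539-56548788, minus strand: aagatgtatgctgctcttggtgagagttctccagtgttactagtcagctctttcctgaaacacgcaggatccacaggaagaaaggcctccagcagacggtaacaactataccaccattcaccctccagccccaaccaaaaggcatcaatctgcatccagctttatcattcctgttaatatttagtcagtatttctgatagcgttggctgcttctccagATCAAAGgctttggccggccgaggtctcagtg
Hal, chr10:93488518-93488767, plus strand: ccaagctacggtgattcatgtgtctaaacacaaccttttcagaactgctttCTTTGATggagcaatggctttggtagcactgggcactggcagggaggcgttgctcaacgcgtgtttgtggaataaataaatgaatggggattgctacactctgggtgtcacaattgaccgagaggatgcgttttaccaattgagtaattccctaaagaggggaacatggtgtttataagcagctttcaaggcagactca
Nags, chr11:102145263-102145512, plus strand: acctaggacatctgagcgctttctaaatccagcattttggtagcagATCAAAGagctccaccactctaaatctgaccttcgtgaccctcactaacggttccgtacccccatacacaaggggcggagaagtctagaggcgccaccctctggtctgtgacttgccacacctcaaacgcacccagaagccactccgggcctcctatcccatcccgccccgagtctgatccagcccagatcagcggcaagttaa
*Sp5* carried CTTTGTT on the opposite strand, starting 222 bases upstream, and CTTTGAT on its own strand, starting 104 bases upstream. The other 4 matches all read CTTTGAT. They lay on the opposite strand in *Nags* (204 bases upstream), *Slc1a2* (207) and *Lect2* (32), and on the strand of the gene in *Hal* (199). The versions of the motif that end in AA or TA were found in none of the 26 promoters.

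Of the 32 measured genes, 0 differed between the genotypes at an adjusted p below 0.05 in limma, where values are log2 signals after RMA. Adjusted p values follow Benjamini and Hochberg and cover all 45101 probe sets, and log2 fold changes are tg minus wt ± SE throughout. Over all genes 542 were higher in tg livers (2.98%) and 176 lower (0.967%), together 3.95%. At an unadjusted p below 0.05, limma gave 14 of the 32 genes, 5 with a higher and 9 with a lower mean in tg livers. A Mann-Whitney test per probe set with the same adjustment also called 0. The lower means at that unadjusted limit comprised 5 of 15 pericentral genes (*Lgr5*, *Tbx3*, *Sp5*, *Rgn* and *Gulo*), 1 of 10 periportal genes (*Ftcd*) and 3 of 7 urea cycle genes (*Nags*, *Arg1* and *Asl*). The higher means were found in 0 pericentral genes, 3 periportal genes (*Aldh1b1*, *Ctsc* and *Agxt*) and 2 urea cycle genes (*Cps1* and *Slc25a15*). Over all 18194 genes, 2360 had a higher and 2228 a lower mean at this limit.

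**Figure D1:**
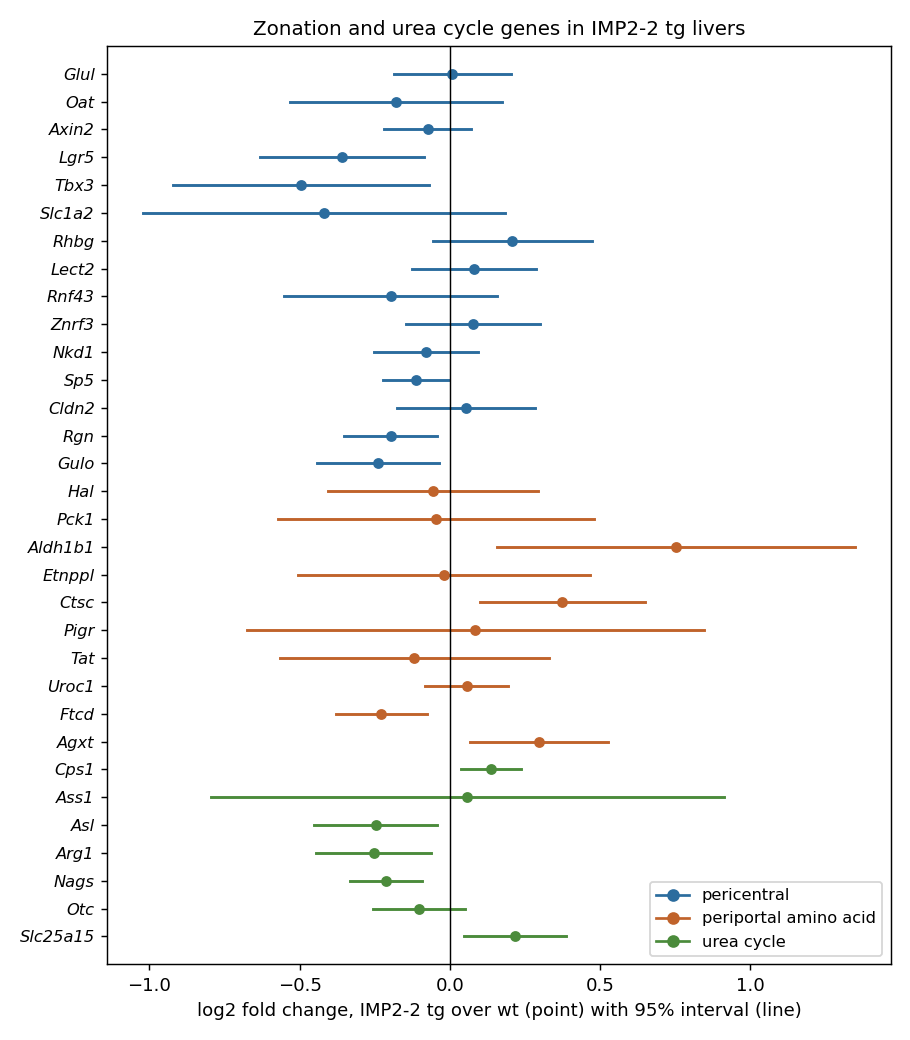
Log2 fold change of *IMP2-2* tg over wt livers for the 32 measured genes (points, horizontal axis) with 95% intervals from limma (lines), colored by group. *Tbx3* has the lowest estimate (-0.50) and *Aldh1b1* the highest (0.75), and the intervals of *Glul* and *Axin2* include 0.

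The median log2 fold change was -0.11 for pericentral genes, 0.02 for periportal genes and -0.10 for urea cycle genes, with -0.02 over all genes. When the pericentral genes were averaged in each liver and expressed relative to the mean of wt livers, tg livers had values of -0.35 to 0.05 (median -0.15) and wt livers -0.16 to 0.17 (median -0.02). Periportal and urea cycle genes together gave -0.12 to 0.28 (median 0.00) in tg livers and -0.20 to 0.35 (median -0.04) in wt livers. Both ranges overlapped between the genotypes. The difference of the pericentral minus the periportal and urea cycle mean was -0.18 log2 units in tg relative to wt livers, where the SD was 0.23 over 10 tg livers and 0.17 over 8 wt profiles. No p value is given for this average because its genes were chosen with results of these arrays known. The lowest value belonged to tg_1407_9 (-0.55 relative to wt), followed by tg_14231_6 (-0.39) and tg_1407_3 (-0.34). Livers tg_1371_2 and tg_1386_9 stood at 0.15 each, close to the highest wt value (0.16). Sample names share 6 numbers between the genotypes, such as that of tg_1386_9 and wt_1386_4. The labels do not explain these numbers. Within them the difference ranged from -0.37 to 0.01 and was below 0 in 5 of 6.

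**Figure D2:**
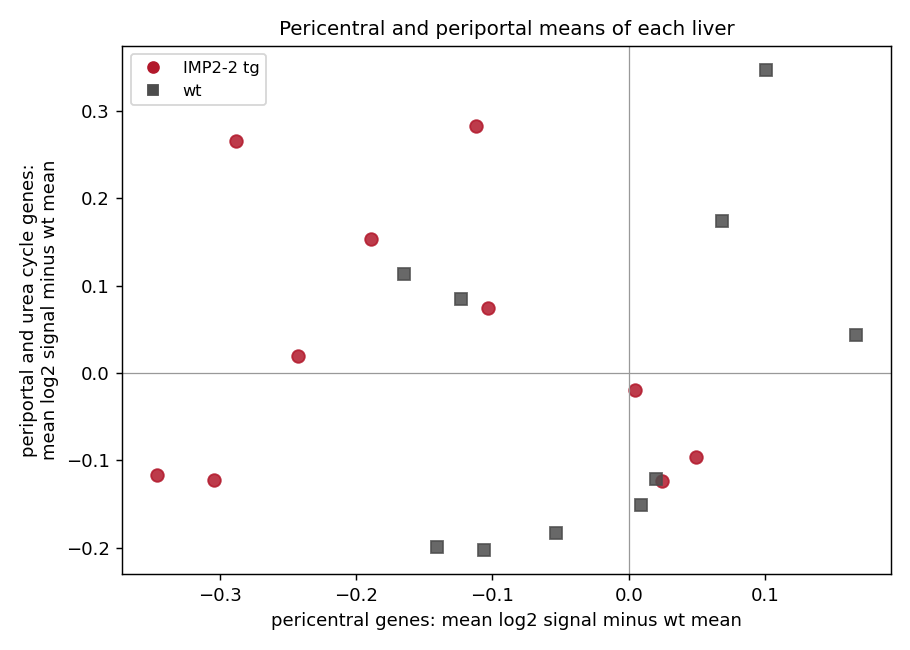
Mean of 15 pericentral genes (horizontal axis) against the mean of 17 periportal and urea cycle genes (vertical axis) in each liver, both in log2 units relative to the wt mean. The *IMP2-2* tg livers (circles) reach -0.35 on the horizontal axis and the wt livers (squares) -0.16, and the genotypes overlap on both axes.

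WNT targets that report or limit the pathway came first among the pericentral genes. *Axin2*, a feedback inhibitor in the β-catenin destruction complex and a general WNT target, had log2 signals of 4.76 to 5.24 (median 4.99) in tg livers and 4.80 to 5.34 (median 5.07) in wt livers. Its log2 fold change was -0.07 ± 0.07 (adjusted p = 0.583) (95% interval -0.22 to 0.07), and 9 of 10 tg livers lay within the wt range. *Nkd1*, which restrains Dishevelled, gave a log2 fold change of -0.08 ± 0.08 (adjusted p = 0.629). *Rnf43* and *Znrf3* encode membrane ubiquitin ligases that remove Frizzled receptors from the cell surface. *Rnf43* ranged from 5.38 to 6.81 (median 6.14) in tg and from 5.95 to 7.01 (median 6.39) in wt livers, with tg_14231_6 lowest. Its log2 fold change was -0.20 ± 0.17 (adjusted p = 0.542), and that of *Znrf3* was 0.08 ± 0.11 (adjusted p = 0.724). *Znrf3* stood at 6.26 in tg_1420_14 and at 6.63 or more in the other tg livers.

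*Lgr5*, *Tbx3* and *Sp5* were the WNT targets with lower means at an unadjusted p below 0.05. *Lgr5* encodes a receptor for R-spondins, which amplify WNT signals, and it had log2 signals of 4.18 to 5.42 (median 4.94) in tg livers and 4.76 to 5.44 (median 5.30) in wt livers. Livers tg_1420_4 (4.21) and tg_1423_2-8_1 (4.18) lay below every wt liver, and 9 of 10 tg livers were below the wt median. Both values were also under 4.53, the median of all probe set means. The log2 fold change was -0.36 ± 0.13 (adjusted p = 0.129) for this brighter of 2 *Lgr5* probe sets. The dimmer probe set, with means of 4.16 in tg and 4.18 in wt livers, gave -0.01 ± 0.08 (adjusted p = 0.965). *Tbx3*, a transcription factor gene that β-catenin activates in liver, ranged over 5.62 to 7.60 (median 6.35) in tg and 6.46 to 7.52 (median 7.08) in wt livers. Its distribution was split, because 6 tg livers lay below all wt livers while tg_1420_12 (7.60) was the highest of all 20. The log2 fold change of *Tbx3* was -0.50 ± 0.20 (adjusted p = 0.176), and the difference was below 0 within each of the 6 shared numbers (-0.95 to -0.03). A further *Tbx3* probe set with signal gave -0.67 ± 0.29 (adjusted p = 0.200). *Sp5*, a WNT-induced zinc finger factor, was dim and stayed under 4.53, the median of all probe set means, in every liver. Its signals were 3.91 to 4.31 (median 4.18) in tg and 4.13 to 4.44 (median 4.23) in wt livers, with 4 tg livers below all wt livers. *Sp5* gave -0.11 ± 0.05 (adjusted p = 0.219), and was also below 0 in each of 6 numbers (-0.21 to -0.04). For both genes the 6 values are not independent, because near-identical wt arrays are shared between numbers.

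**Figure D3:**
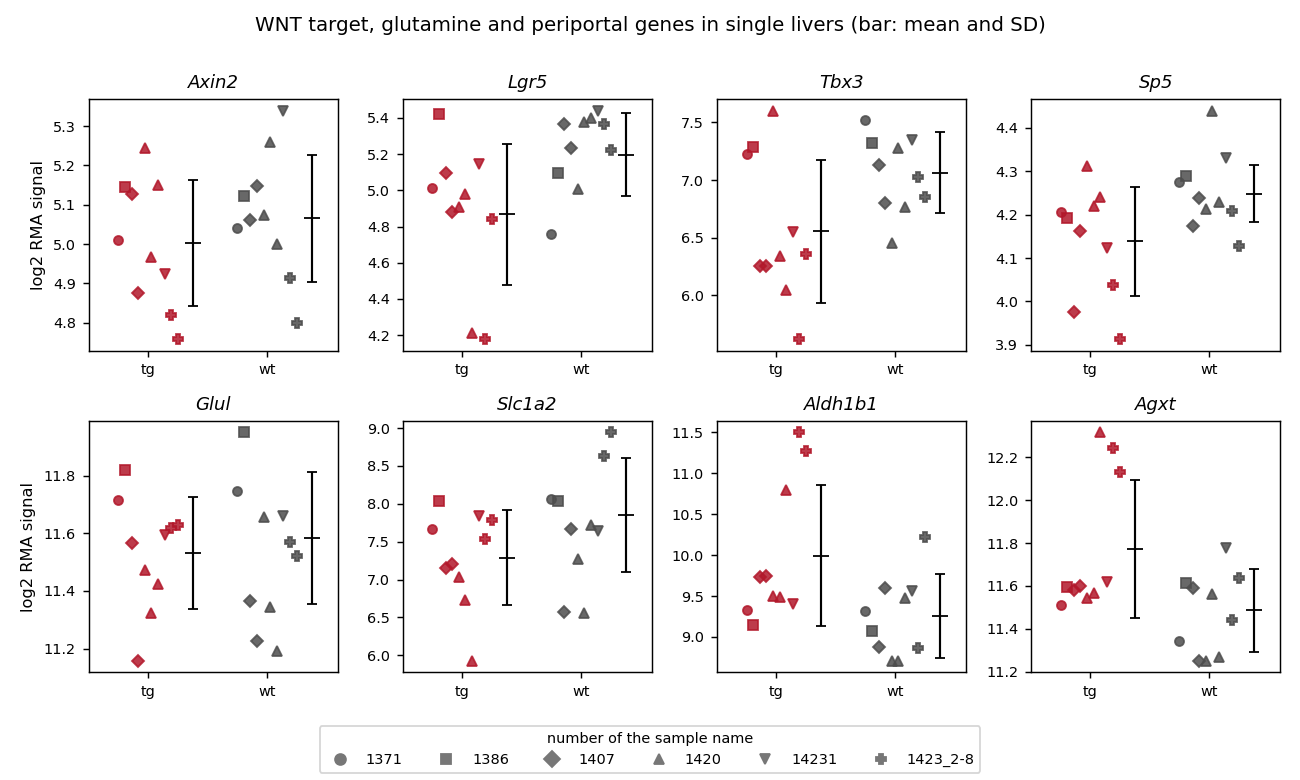
Log2 RMA signal (vertical axis) of 8 pericentral and periportal genes in single livers of both genotypes, with symbols for the number in the sample name and black bars for the mean and SD (n = 10 tg livers, n = 8 wt profiles). In *Tbx3*, 6 tg livers lie under the wt livers. In *Aldh1b1* and *Agxt*, 3 tg livers stand above all others, and *Glul* overlaps.

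Genes of glutamine and ammonia handling gave a mixed picture. *Glul*, encoding glutamine synthetase and the classical marker of the hepatocytes around the central vein, had log2 signals of 11.16 to 11.82 (median 11.58) in tg and 11.19 to 11.95 (median 11.55) in wt livers. The ranges overlapped almost fully, and the log2 fold change was 0.01 ± 0.09 (adjusted p = 0.971) with a 95% interval of -0.19 to 0.20. A dimmer *Glul* probe set gave -0.09 ± 0.09 (adjusted p = 0.615). *Oat*, ornithine aminotransferase, gave -0.18 ± 0.17 (adjusted p = 0.583), and tg_1420_4 (9.79) and tg_1420_14 (10.19) were the only livers below the wt range. *Slc1a2*, a glutamate transporter of pericentral hepatocytes, varied by 3.02 log2 units over the 20 livers, with 5.92 to 8.03 (median 7.37) in tg and 6.56 to 8.94 (median 7.69) in wt livers. Its brightest probe set gave -0.42 ± 0.29 (adjusted p = 0.431). The 4 other *Slc1a2* probe sets also had lower means in tg livers, from -0.06 to -0.57, the last at an adjusted p of 0.0833. A probe set that *Slc1a2* shares with *Gm13872* gave -0.17 (adjusted p = 0.149). *Rhbg*, an ammonium transporter of pericentral hepatocytes, gave 0.21 ± 0.13 (adjusted p = 0.37), and 3 tg livers (7.55, 8.08 and 8.24) exceeded the highest wt liver (7.51).

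*Lect2*, a secreted hepatokine under β-catenin control, and *Cldn2*, a claudin of tight junctions, gave 0.08 ± 0.10 (adjusted p = 0.68) and 0.05 ± 0.11 (adjusted p = 0.822), respectively. *Rgn*, which encodes the calcium-binding lactonase regucalcin, ranged over 12.58 to 13.03 (median 12.86) in tg and 12.76 to 13.41 (median 12.99) in wt livers. The difference was -0.20 ± 0.07 (adjusted p = 0.142), and 9 of 10 tg livers were below the wt median. *Gulo*, the final enzyme of vitamin C synthesis in mice and like regucalcin a part of that pathway, gave 10.21 to 11.06 (median 10.61) and 10.66 to 11.10 (median 10.90), respectively. In *Gulo* 6 tg livers lay below all wt livers, and the log2 fold change was -0.24 ± 0.10 (adjusted p = 0.169).

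**Figure D4:**
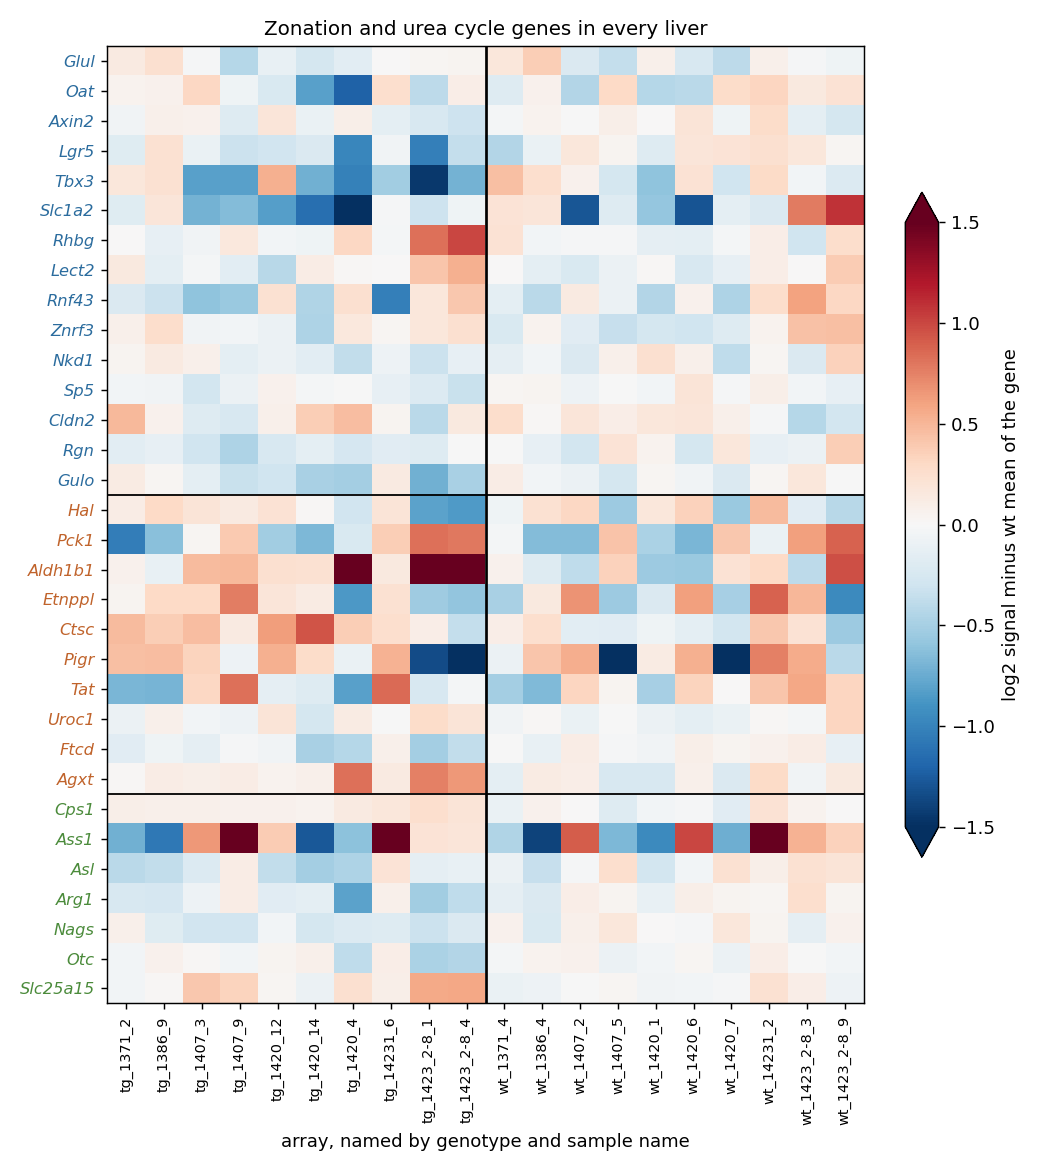
Log2 signal of 32 genes (rows) in each of 20 livers (columns), shown as the difference from the wt mean of the gene, with blue for lower, red for higher and colors saturating at 1.5 in either direction. Black lines divide the genotypes and the 3 groups of genes. Livers tg_1420_4, tg_1423_2-8_1 and tg_1423_2-8_4 share red cells in *Aldh1b1* and *Agxt*. In *Pck1* and *Ass1*, livers of some numbers resemble each other, such as tg_1386_9 and wt_1386_4. Livers of other numbers differ in both genes, such as wt_1407_2 and wt_1407_5.

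Among the periportal genes, the histidine pathway was covered by 3 of its enzymes. *Hal*, histidine ammonia-lyase, opens the pathway and gave -0.06 ± 0.17 (adjusted p = 0.884), with 9.91 to 11.05 (median 10.88) in tg and 10.20 to 11.24 (median 10.81) in wt livers. *Uroc1*, urocanate hydratase, takes the following step and gave 0.06 ± 0.07 (adjusted p = 0.672). *Amdhd1*, the enzyme between *Uroc1* and *Ftcd*, is no member of the list and gave 0.01 ± 0.18 (adjusted p = 0.983). *Ftcd*, which passes the formimino group on to tetrahydrofolate, had log2 signals of 10.74 to 11.33 (median 11.10) in tg livers and 11.13 to 11.37 (median 11.27) in wt livers. There 6 tg livers lay below all wt livers, 9 of 10 were below the wt median, and the log2 fold change of *Ftcd* was -0.23 ± 0.07 (adjusted p = 0.0876) with a 95% interval of -0.38 to -0.08. Within numbers *Ftcd* ranged from -0.44 to 0.05 and was above 0 in 2 of 6.

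*Pck1*, which commits precursors to gluconeogenesis, and *Tat*, tyrosine aminotransferase, are both raised by fasting hormones. Their log2 fold changes were -0.04 ± 0.25 (adjusted p = 0.943) and -0.12 ± 0.22 (adjusted p = 0.797), with 95% intervals of -0.57 to 0.48 and -0.57 to 0.33. *Etnppl*, a phospholyase of phosphoethanolamine, gave -0.02 ± 0.23 (adjusted p = 0.974). *Pigr*, the receptor that carries immunoglobulin A into bile, gave 0.08 ± 0.37 (adjusted p = 0.923) with the widest interval among periportal genes (-0.68 to 0.85), since wt_1407_5 and wt_1420_7 stood at 9.60 and 9.62 and tg_1423_2-8_4 and tg_1423_2-8_1 at 9.94 and 10.18, against 11.13 or more in every other liver.

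Higher means were seen for *Aldh1b1*, *Agxt* and *Ctsc*. *Aldh1b1* encodes a mitochondrial aldehyde dehydrogenase and gave the largest estimate of the list. Its log2 signals were 9.15 to 11.50 (median 9.62) in tg livers and 8.71 to 10.22 (median 9.19) in wt livers, and the log2 fold change was 0.75 ± 0.29 (adjusted p = 0.142). *Agxt* encodes alanine-glyoxylate aminotransferase, which detoxifies glyoxylate, and gave 11.51 to 12.32 (median 11.60) and 11.25 to 11.78 (median 11.50), respectively. All 10 tg livers were above the wt median of *Agxt*, 3 of them above every wt liver, and the log2 fold change was 0.30 ± 0.11 (adjusted p = 0.136). *Ctsc*, cathepsin C, a protease that also activates the granule proteases of immune cells, ranged over 9.60 to 10.90 (median 10.32) in tg and 9.40 to 10.36 (median 9.84) in wt livers. It gave 0.37 ± 0.13 (adjusted p = 0.115), with 4 tg livers above all wt livers. Macrophage genes were higher in tg livers, as 6 of 9 Kupffer cell markers passed the limit, where 2.98% of all genes were called higher. These marker calls were not followed under the alternative settings, and the part of macrophage genes in the *Ctsc* values was not tested.

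The urea cycle genes follow the order of the pathway, apart from *Ass1*, which is described last. *Nags* makes N-acetylglutamate, without which the first enzyme of the cycle is inactive. It had log2 signals of 8.18 to 8.58 (median 8.29) in tg livers and 8.27 to 8.67 (median 8.55) in wt livers, the means being 8.31 ± 0.12 in tg and 8.50 ± 0.13 in wt (SD, n = 10 and 8). Only tg_1371_2 (8.58) among the tg livers was above the wt median, and wt_1386_4 (8.27) was the lowest wt liver. The log2 fold change of *Nags* was -0.21 ± 0.06 (adjusted p = 0.0512), the smallest adjusted p of the list, with a 95% interval of -0.33 to -0.09. Within the shared numbers it ranged from -0.41 to 0.05, and was below 0 in 4 of 6. *Nags* was called lower under 7 of 17 alternative settings, among them limma with the shared number as a term (adjusted p = 0.0386) or as a random block (adjusted p = 0.0364). Among the settings without a call were limma with near-identical wt arrays averaged (adjusted p = 0.122) and with array weights (adjusted p = 0.129). *Cps1*, carbamoyl-phosphate synthetase 1, which NAGS activates, gave 13.13 to 13.32 (median 13.15) and 12.87 to 13.28 (median 13.06) in tg and wt livers. All 10 tg livers lay above the wt median of *Cps1*, and the log2 fold change was 0.14 ± 0.05 (adjusted p = 0.114), an interval of 0.04 to 0.24.

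*Otc*, ornithine transcarbamylase, gave -0.10 ± 0.07 (adjusted p = 0.444) in its brightest probe set. The next brightest *Otc* probe set gave -0.18 ± 0.07 (adjusted p = 0.180) and the dimmest 0.04 ± 0.07 (adjusted p = 0.805). *Slc25a15*, the carrier that exchanges ornithine and citrulline across the inner mitochondrial membrane, ranged over 11.62 to 12.30 (median 11.88) in tg and 11.62 to 11.94 (median 11.68) in wt livers. In 5 tg livers it exceeded all wt livers, and the log2 fold change was 0.22 ± 0.08 (adjusted p = 0.14). The cytosolic steps followed. *Asl*, argininosuccinate lyase, gave 10.58 to 11.31 (median 10.81) in tg and 10.75 to 11.35 (median 11.13) in wt livers, and *Arg1*, arginase 1, which releases urea, gave 12.20 to 13.12 (median 12.80) and 12.79 to 13.26 (median 13.04). For each of these 2 genes 5 tg livers lay below all wt livers and 5 within their range. The log2 fold changes were -0.25 ± 0.10 (adjusted p = 0.158) for *Asl* and -0.25 ± 0.09 (adjusted p = 0.127) for *Arg1*.

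*Ass1*, argininosuccinate synthetase, was the most variable gene of the list. Its own probe set ranged from 6.54 to 9.60 over the 20 livers and gave a log2 fold change of 0.06 ± 0.41 (adjusted p = 0.954) with a 95% interval of -0.79 to 0.91. A brighter probe set is annotated to *Ass1* and *Gm5424* together, so the signal cannot be assigned to *Ass1* alone. That probe set ranged from 11.22 to 11.98 and gave 0.06 ± 0.10 (adjusted p = 0.763).

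**Figure D5:**
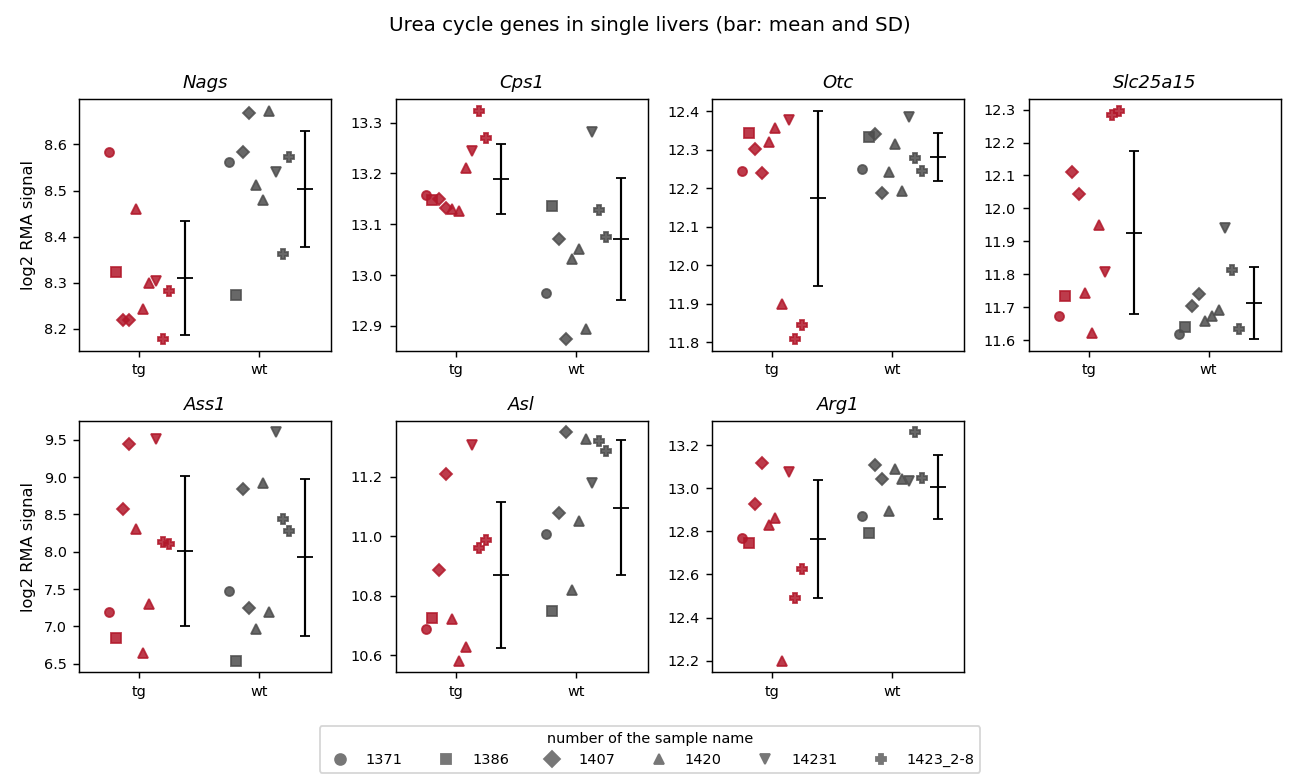
Log2 RMA signal (vertical axis) of the 7 urea cycle genes in single livers of both genotypes, with symbols for the number in the sample name and black bars for the mean and SD (n = 10 tg livers, n = 8 wt profiles). *Nags* is at 8.18 to 8.58 in tg and 8.27 to 8.67 in wt livers, and *Ass1* spreads over about the same range in both genotypes.

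Some of these differences were smaller without 3 tg livers. These were set apart because earlier results of these same arrays had shown them to differ from the rest, so what follows is descriptive. In tg_1420_4, tg_1423_2-8_1 and tg_1423_2-8_4, all 3 values were above the 7 other tg livers for 3 of the 32 measured genes (*Rhbg*, *Aldh1b1* and *Agxt*). They were below them for 7 of the 32 (*Lgr5*, *Gulo*, *Hal*, *Etnppl*, *Pigr*, *Arg1* and *Otc*). Over all 18194 genes the shares were 11.6% above and 8.08% below, so the 3 genes above were no larger a share than over all genes. *Aldh1b1* stood at 10.80, 11.50 and 11.27 in these livers and at 9.15 to 9.75 in the 7 others. *Otc* stood at 11.90, 11.81 and 11.84 against 12.24 to 12.38, and *Agxt* at 12.32, 12.24 and 12.13 against 11.51 to 11.62. When the 3 livers were left out, limma calls over all genes fell from 542 higher and 176 lower to 107 and 5. Larger adjusted p values in that fit are therefore not particular to this list. Without the 3 livers the log2 fold change was 0.24 (adjusted p = 0.657) for *Aldh1b1*, 0.10 (adjusted p = 0.646) for *Agxt* and -0.16 (adjusted p = 0.548) for *Lgr5*. *Tbx3* gave -0.26 (adjusted p = 0.659) and *Arg1* -0.11 (adjusted p = 0.567). The values of *Nags* and *Asl* moved less, to -0.19 (adjusted p = 0.274) and -0.24 (adjusted p = 0.422), and *Ctsc* went to 0.50 (adjusted p = 0.0976). The same 3 livers had means of 8.76, 6.73 and 7.20 over 10 male-biased liver genes, as had wt_1423_2-8_9 with 7.04, where all other livers had 9.75 or more. Their *Xist* signals, in the same order, were 3.70, 3.95, 4.21 and 3.93. All lay within the *Xist* range of their genotype (3.51 to 4.65 in tg and 3.76 to 4.74 in wt livers). The part of the male-biased genes in the result was not tested beyond a fit with their mean as a covariate, in which *Aldh1b1* (0.51 (adjusted p = 0.0322)) and *Ctsc* (0.45 (adjusted p = 0.0316)) were called higher.

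Other genes varied with the number in the sample name. Of the whole list *Glul* did so most, with 72.3% of its variance within genotypes lying between the 6 numbers, against a median of 34.3% over all genes. Livers tg_1386_9 and wt_1386_4 had the highest *Glul* signals of their genotypes (11.82 and 11.95). These 2 arrays were also the most alike in the whole data set (SD of the log2 difference 0.155), and without them the share of *Glul* was 59.8% against a median of 30.0%, with *Znrf3* (66.2%) the highest of the list. Whether the likeness of this pair belongs to the number or to the arrays cannot be told apart. With all arrays, *Tat* (68.3%), *Znrf3* (67.5%), *Pck1* (67.2%), *Slc1a2* (65.8%) and *Ass1* (64.1%) followed. *Ass1* was at 9.51 in tg_14231_6 and 9.60 in wt_14231_2, but at 6.85 in tg_1386_9 and 6.54 in wt_1386_4. Livers tg_1423_2-8_1, tg_1423_2-8_4, wt_1423_2-8_3 and wt_1423_2-8_9 had *Pck1* signals of 12.71 to 12.98, and they also had clock scores of 1.89 to 3.38, where all other livers were between -1.57 and -0.64. The score is the mean of 7 clock genes (*Dbp*, *Tef* and the *Per* and *Nr1d* genes) minus the mean of 4 genes of the opposite phase (*Arntl*, *Npas2*, *Clock* and *Cry1*). *Pck1* and *Tat* rise with fasting, but the hour of killing and the time since the last meal are not given in the labels, and the part of either was not tested.

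Further genes of zonation, WNT signalling and nitrogen metabolism were examined as lists. Their counts stand beside those over all 18194 genes, where limma gave 2360 higher and 2228 lower means at an unadjusted p below 0.05. Of 14 other pericentral genes 0 were called in limma (6 at an unadjusted p below 0.05, 3 with a higher and 3 with a lower mean). The largest estimates were 0.71 ± 0.33 (adjusted p = 0.229) for *Slc13a3*, a dicarboxylate transporter, and -0.50 ± 0.16 (adjusted p = 0.0969) and -0.50 ± 0.43 (adjusted p = 0.535) for the drug-metabolizing cytochromes *Cyp2c29* and *Cyp2c37*. Of 14 other periportal genes 2 were called higher in tg livers and 1 lower, where 2.98% and 0.967% of all genes were called. *Cdh1*, the adhesion protein E-cadherin, gave 0.82 ± 0.21 (adjusted p = 0.0381), *Ifitm3*, an interferon-induced membrane protein, 0.34 ± 0.06 (adjusted p = 0.00282), and *Apoa4*, an apolipoprotein, -1.63 ± 0.42 (adjusted p = 0.0427). None of these 3 belongs to amino acid metabolism. With each array left out in turn, the call of *Ifitm3* held in 20 of 20 fits, that of *Cdh1* in 11 and that of *Apoa4* in 8. Without the 3 tg livers above, *Cdh1* gave 0.60 (adjusted p = 0.27), *Apoa4* -1.24 (adjusted p = 0.274) and *Ifitm3* 0.31 (adjusted p = 0.0286). Without wt_1423_2-8_9 as well, *Cdh1* gave 0.46 (adjusted p = 0.258), and *Ifitm3* (adjusted p = 0.0533) missed the limit.

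Among the components of WNT signalling, 0 of 8 genes for ligands and their secretion (0 at an unadjusted p below 0.05), 0 of 9 receptor genes (1, lower) and 0 of 14 genes of the transcriptional machinery (4, of which 3 higher and 1 lower) were called by limma. The largest estimate in the last list was 0.52 ± 0.23 (adjusted p = 0.212) for *Ccnd1*, the cell cycle gene of cyclin D1. Of 16 inhibitors and members of the destruction complex, *Axin1* alone was called, higher in tg livers, as were 2.98% of all genes. This scaffold of the complex that degrades β-catenin had log2 signals of 6.54 to 7.19 (median 6.75) in tg livers and 6.29 to 6.69 (median 6.51) in wt livers, and its log2 fold change was 0.30 ± 0.07 (adjusted p = 0.0379). All 10 tg livers lay above the wt median and 6 above every wt liver. The dimmer of its 2 probe sets went the other way (-0.15 ± 0.05, adjusted p = 0.0961), and their mean gave 0.08 (adjusted p = 0.339). Without the 3 livers above it gave 0.18 (adjusted p = 0.216), and the call was also lost for 12 of 20 arrays when each was left out in turn (adjusted p 0.0218 to 0.0758). The receptor gene *Fzd7* gave -0.46 ± 0.18 (adjusted p = 0.164), and the WNT deacylase *Notum* -0.40 ± 0.19 (adjusted p = 0.255).

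In the list of ammonia, ornithine and glutamine handling, *Car5a* was called lower in tg livers, 1 of 15 genes, where 0.967% of all genes were called lower. *Car5a* encodes a mitochondrial carbonic anhydrase that supplies bicarbonate to carbamoyl-phosphate synthetase 1. Its log2 signals were 8.23 to 8.88 (median 8.55) in tg and 8.76 to 9.47 (median 8.95) in wt livers, so that 7 tg livers lay below all wt livers and all 10 below the wt median. It fell by 0.45 on the log2 scale (log2 fold change -0.45 ± 0.10 (adjusted p = 0.0212)), and stood at -0.36 (adjusted p = 0.162) without the 3 livers. With each array left out in turn *Car5a* remained below the limit in 20 of 20 fits. *Glud1*, glutamate dehydrogenase, which releases ammonia from glutamate, gave 0.24 ± 0.07 (adjusted p = 0.0562), and *Slc25a12*, an aspartate-glutamate carrier, 0.30 ± 0.12 (adjusted p = 0.168). At an unadjusted p below 0.05 in limma, 2360 of all 18194 genes had a higher and 2228 a lower mean. Of 38 further genes of amino acid breakdown 0 were called in limma, where 9 had an unadjusted p below 0.05, 1 with a higher and 8 with a lower mean. The largest estimates were -0.44 ± 0.12 (adjusted p = 0.0589) for *Haao*, an enzyme of tryptophan breakdown, -0.43 ± 0.12 (adjusted p = 0.0654) for *Gpt2*, the mitochondrial alanine aminotransferase, and -0.25 ± 0.09 (adjusted p = 0.118) for *Prodh*, proline dehydrogenase.

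The lists of fasting response (12 genes), feeding response (7), core clock (13) and male-biased genes (10) held 0 calls, with 3, 1, 0 and 0 genes at an unadjusted p below 0.05 in limma. The most extreme estimates were 0.86 ± 0.52 (adjusted p = 0.362) for *Igfbp1*, -0.47 ± 0.27 (adjusted p = 0.342) for *Fasn*, -0.68 ± 0.86 (adjusted p = 0.69) for *Dbp* and -1.02 ± 0.88 (adjusted p = 0.541) for *Cyp7b1*. After removal of the genotype means, *S1pr3* (r = 0.81), *Sft2d1* (0.79), *Cald1* (0.76), *2310011J03Rik* (0.76) and *Thrap3* (0.76) had the highest correlations with the difference of pericentral minus periportal means over the 20 livers, out of 11744 genes above the median signal. The strongest correlation of either sign was negative, at -0.86 for *Trp53inp1*, which was named after its value was seen.

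The hepatocyte identity of the tissue was evident from 8 measured hepatocyte markers, whose mean was 13.33 to 13.45 in tg and 13.31 to 13.43 in wt livers, with 0 called (1 at an unadjusted p below 0.05). Kupffer cell markers averaged 8.04 to 8.82 and 7.71 to 8.38. In the remaining marker lists, *Lyve1* was called among 9 endothelial genes and *Pkhd1* among 6 cholangiocyte genes, both higher, and 0 among lymphocyte, stellate cell, erythroid and pancreas genes. Over all genes 2.98% were called higher, and the calls of *Lyve1* and *Pkhd1* were not followed under the alternatives. A pair of wt arrays, wt_1407_2 with wt_1420_6, and another, wt_1407_5 with wt_1420_7, were nearly identical (SD of the log2 difference 0.168 and 0.172), so either pair enters the wt mean and SD as 1 profile, while limma kept all 20 arrays. The arrays of wt_1386_4 and tg_1386_9 were closer still (0.155) and kept their labels. With the near-identical pairs averaged, 0 members were called and *Car5a* (adjusted p = 0.0593) and *Axin1* (0.0891) missed the limit, as did *Cdh1* (0.0734) and *Apoa4* (0.0871). The labels do not say whether replicate arrays came from separate litters or hybridisations, so the p values measure the spread between these samples.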

How the data were processed

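The authors hybridised biotin-labelled liver RNA to Affymetrix Mouse Genome arrays and processed the scans by RMA, the tool the submitters' processing notes name, without a version in the sources used here. Log2 values for 45101 probe sets and 20 arrays (10 tg, 10 wt) were used as deposited. Genes were named through the platform annotation, which gives 34958 probe sets 1 symbol and 932 several. Where a gene had several probe sets, that of the highest overall mean was taken.

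limma 3.58.1 in R 4.3.3 fitted genotype to all arrays. Python 3.11.15 with matplotlib 3.10.9 drew the figures. On simulated arrays with 45101 probe sets, 79 of 100 changes of 0.5 and 97 of 100 changes of 1 log2 unit were called, beside 5 calls of unchanged probe sets. The simulated noise was drawn for each array on its own, without near-identical arrays, shared numbers or livers set apart. These rates therefore need not hold for the real arrays. The 35 members and all lists were chosen with earlier results of these data known. Named were all members, genes of other lists past the limit and up to 3 with the largest estimate, and the 5 genes with the highest positive correlation with the zonal difference. Precision is limited by the number of arrays.

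Alternatives were the number in the sample names as a term or random block, near-identical arrays averaged, other scalings, probe set choices, filters and limma settings, array weights, *Xist*, male-biased genes or a clock score as covariates, Mann-Whitney tests, and arrays left out.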

Additional observations from a re-analysis of the deposited data

Results flagged for a closer look

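3 of 64 groups, each of them 1 gene in 1 genotype, held a liver far from the others by Dixon's test, which picks about 1 in 20 groups by chance. *Znrf3* was at 6.26 in tg_1420_14, while the 9 other tg livers were at 6.63 to 6.98. *Pigr* was at 9.61 in the mean of the near-identical arrays wt_1407_5 and wt_1420_7, with 11.13 as the closest and 12.29 as the highest of the other wt profiles. *Uroc1* was at 11.14 in wt_1423_2-8_9 and at 10.69 to 10.83 in the remaining 7 wt profiles.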

How the results depend on the processing

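Pericentral genes had 0 calls under each alternative, including each array left out. Periportal genes had 2 calls with male-biased genes as a covariate (*Aldh1b1* and *Ctsc* higher), and 0 to 1 with each array left out (*Ftcd* lower without tg_14231_6, adjusted p = 0.0381). Urea cycle genes had 1 call, *Nags* lower, with the shared number as a term (replicate block, adjusted p = 0.0386) or as a random block (0.0364), after renewed quantile normalization (0.0195), with only probe sets above the median mean (0.0361), with the clock score as a covariate (0.0338), with the mean of all probe sets of a gene (0.0349) and without wt_1386_4 and tg_1386_9 (0.0254). With each array left out they had 0 to 1, the call being *Nags* without tg_1371_2, tg_1386_9, tg_1420_12, tg_14231_6 or wt_1386_4. Its adjusted p over all alternatives was 0.0195 to 0.332, so *Nags* sits at the limit, and the cause was not tested.

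The pericentral minus periportal difference kept its direction, from -0.21 to -0.14 under the alternatives and from -0.22 to -0.14 with each array left out. Estimates of 13 members, none called, changed sign under some setting. Arrays that share a number across genotypes correlated at 0.0790 to 0.382 after genotype means were removed, most with their own number in 4 of 6 cases, so they were not taken as pairs. The block raised the calls over all genes to 981 higher and 342 lower. These counts were 163 and 18 with near-identical arrays averaged, 107 and 5 without the 3 tg livers tg_1420_4, tg_1423_2-8_1 and tg_1423_2-8_4, 76 and 5 when wt_1423_2-8_9 was left out as well, an alternative chosen after seeing the data, and 46 and 3 without tg_1423_2-8_1, tg_1423_2-8_4, wt_1423_2-8_3 and wt_1423_2-8_9, where *Ifitm3* missed the limit too (adjusted p = 0.0573). *Car5a* was called in 13 of 17 alternatives and *Axin1* in 11 of 17. With single arrays left out, *Axin1*, *Apoa4* and *Cdh1* each lost their call without tg_1407_3, tg_1420_4, tg_1423_2-8_1, tg_1423_2-8_4, wt_1407_5, wt_1420_1 or wt_1420_7. In addition, *Axin1* lost it without wt_1407_2, wt_1420_6, wt_1423_2-8_3, wt_1423_2-8_9 or wt_14231_2, *Apoa4* without tg_1407_9, tg_1420_14, wt_1371_4, wt_1423_2-8_9 or wt_14231_2, and *Cdh1* without tg_1407_9 or wt_1423_2-8_3 (highest adjusted p 0.0841). Mann-Whitney tests give no value for the zonal difference or for fold changes, and the trend and averaging settings do not alter the zonal difference.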
